A study of Mus musculus with 2 samples.

Results

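The genes described are the forkhead (Fox) and Sox transcription factor genes of mouse medullary thymic epithelial cells (mTECs). A gene was taken by its symbol alone, Fox with 1 letter and a number or Sox with a number, leaving out the 4 genes Foxn1, Foxj1, Foxi1 and Sox8. This gave 59 of the 23997 genes in the deposited table, 41 Fox and 18 Sox genes, and no measured value was used to choose them. The cells were mTECs with high MHC class II, sorted by flow cytometry from the thymus of pooled C57BL/6 mice, and polyadenylated RNA was sequenced. Each genotype has a single library, labelled WT or Aire-KO (Aire-/-), so Aire, the regulator that drives display of peripheral tissue genes in these cells, is the difference between the labels. Neither the size of the pool, nor the age or sex of the mice, nor the allele of Aire that was targeted is stated in the labels.

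Expression is given in FPKM, a count of fragments scaled to transcript length and to library size, first for the library labelled WT and then for the library labelled Aire-KO. Lower and higher always describe the value labelled Aire-KO against the one labelled WT. With 1 library per genotype there is no spread between animals or libraries and no test, and every difference is one between these 2 libraries. A gene was called lower or higher by a rule of size, at least 2-fold on the scale of log2(FPKM + 0.1), which understates changes of low genes, provided its mean over both libraries reached 0.5 FPKM. Brackets after a log2 ratio hold the 95% counting interval of the ratio without the added 0.1. It rests on fragments estimated from the steps of low FPKM values, about 47900000 and 54200000 in all, and covers counting error only. Aire itself stood at 220.6 and 640.2 FPKM, and a value for the whole transcript cannot isolate a deleted part, so it does not check the labels. All 12 mTEC markers examined were measured, none passed the rule in either direction, and none was below 25.3 FPKM in the first library or 47.0 FPKM in the second.

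Forkhead proteins bind DNA through a winged-helix domain, and Sox proteins bind the minor groove and bend DNA through an HMG box. Members of both families open chromatin and fix cell fates during development: FoxA factors in gut, liver and lung, FoxF and FoxC factors in mesenchyme, SoxF factors in vessels, Sox10 in neural crest and glia, and Sox2 in stem cells and foregut epithelium. Others, such as the FoxK, FoxJ and FoxP factors, are made in many cell types. In the thymus, Foxn1 sets epithelial identity, and several mTEC subsets that resemble peripheral cell types use forkhead or Sox regulators.

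Of the 59 genes, 38 reached a mean of 0.5 FPKM. Of these, 9 were lower (23.7%), against 20.5% of all 15906 genes measured, and 3 were higher (7.89%), against 7.09%. The remaining 26 were neither, and the median log2 ratio was -0.08, against 0.05 for all measured genes. By count and by median the families as a whole therefore lay close to all genes. The lower genes were Foxn4, Foxi2, Sox10, Sox18, Foxf1, Foxo6, Sox2, Foxa2 and Foxe1, and the higher ones Sox21, Foxs1 and Sox15. Of the 9 lower genes, 8 reached 0.5 FPKM in the library labelled WT only, as Sox15 did in the other library, so their passing the minimum is not separate from their difference. With 1 FPKM added in place of 0.1, only Foxn4, Foxi2, Sox10, Sox18, Sox21 and Foxs1 kept their calls. Foxf1, Foxe1 and Sox21 overlap annotated genes on the opposite strand (Gm27530, Gm12446 and Gm4675), for which the authors listed no values under these symbols. The values of Foxf1, Foxe1 and Sox21 are therefore uncertain where counting ignored the strand.

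**Figure D1:**
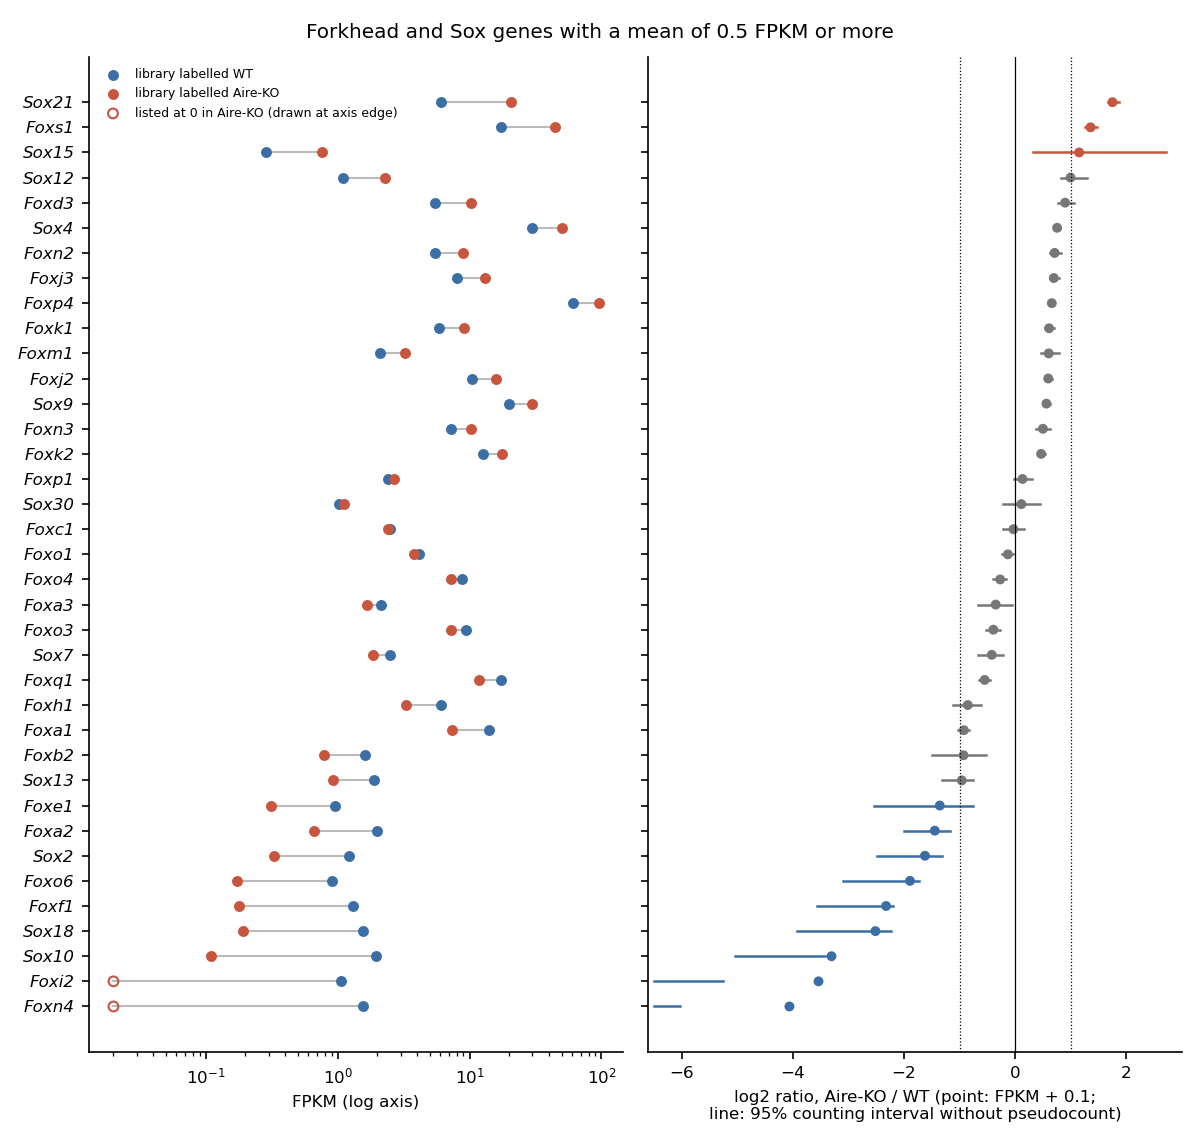
Forkhead and Sox genes that reached the minimum of 0.5 FPKM (37 drawn), ordered by log2 ratio. Left, FPKM on a log axis in the library labelled WT (blue) and the library labelled Aire-KO (red), with open circles at the axis edge for the 2 genes listed at 0; right, the log2 ratio with 0.1 FPKM added (points) and the 95% counting interval without it (lines, with no lower end for Foxi2 and Foxn4), dotted lines marking 2-fold. The long blue lines at the bottom belong to genes below 2 FPKM in both libraries.

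The genes split by level. At a mean of 0.5 to 2 FPKM, 9 of 15 forkhead and Sox genes were lower and 1 was higher, against 44.2% lower and 7.65% higher among all 3295 genes in that range. At 2 FPKM or more, none of 23 was lower and 2 were higher, against 14.3% lower and 6.95% higher among 12611 genes. Of the 17 genes at 5 FPKM or more, 13 had a ratio above 0, with a median of 0.61. For all 9792 genes at that level the median was 0.16, and 6100 had a ratio above 0.

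**Figure D2:**
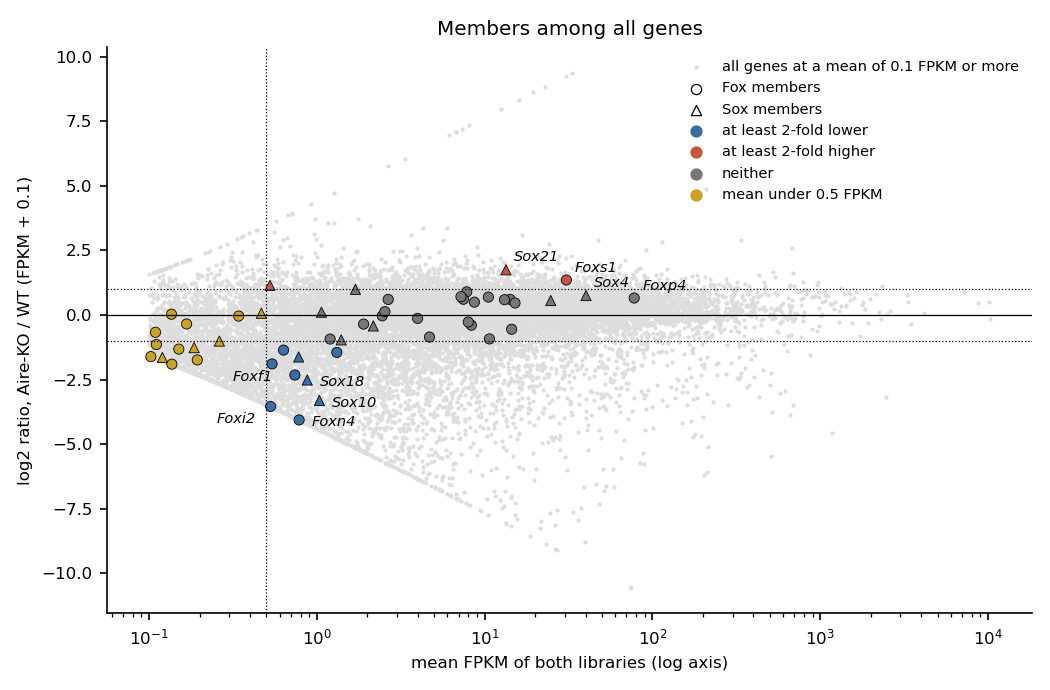
Log2 ratio (vertical axis, 0.1 FPKM added) against mean FPKM (log axis) for all genes at 0.1 FPKM or more (grey) and for Fox (circles) and Sox (triangles) genes, coloured by call. Dotted lines mark 2-fold and the minimum of 0.5 FPKM; all 9 blue points lie between 0.5 and 2 FPKM, and the 23 genes to the right of 2 FPKM include no blue point.

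The FoxA genes encode pioneer factors of endodermal organs. Foxa1 was the most abundant, at 14.02 and 7.34 FPKM, and its log2 ratio of -0.92 (-1.04 to -0.83) missed the 2-fold rule narrowly. Foxa2 stood at 1.97 and 0.660 FPKM and was called lower (-1.45, -2.01 to -1.17). Foxa3 differed least, at 2.14 and 1.66 FPKM (-0.35, -0.67 to -0.06). All 3 FoxA genes thus lay below 0 by more than counting error, and the interval of Foxa3 did not overlap those of the other two.

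Regulators that work beside FoxA factors in endoderm were mostly lower or neither. Of 16 listed, 11 were measured, of which 6 were lower, 1 was higher and 4 were neither (median log2 ratio -1.62). The intestinal regulator gene Cdx2 stood at 2.40 and 0.0467 FPKM and the goblet cell regulator gene Spdef at 4.73 and 0.257 FPKM. The one higher gene, the nuclear receptor gene Nr5a2, stood at 0.416 and 1.30 FPKM and lost its call with 1 FPKM added or a minimum of 2 FPKM, and Cebpa stood at 85.4 and 57.2 FPKM. Of 16 genes known as FoxA targets all were measured and 15 were lower, with a median of -3.84, and Pck1, which encodes an enzyme of glucose synthesis, was the exception at 52.7 and 28.3 FPKM. Sftpb, a surfactant gene of that list, stood at 3.36 FPKM and was listed at 0. That list holds genes of liver, gut and lung, and lower values of such tissue genes were already known in these libraries, so it is not independent evidence about FoxA factors. Marker lists of cells that use them were lower alongside: 6 of 6 goblet or secretory-like genes (summed 1697 and 93.6 FPKM) and 6 of 8 hepatocyte or enterocyte-like genes (745.8 and 140.4 FPKM), with no gene listed at 0. Their part in the FoxA values was not tested. In sorted cell pools, fewer cells of a type and less RNA per cell cannot be told apart.

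The FoxO genes encode factors held out of the nucleus by insulin and growth factor signalling through Akt kinases. Foxo3 stood at 9.48 and 7.19 FPKM, Foxo4 at 8.75 and 7.23 FPKM and Foxo1 at 4.17 and 3.80 FPKM. All 3 were slightly below 0, with log2 ratios of -0.39, -0.27 and -0.13, and none was called. Foxo6, the brain-enriched member, was the exception and was called lower, at 0.910 and 0.172 FPKM (-1.89, -3.11 to -1.73). The interval of Foxo6 did not overlap those of the other FoxO genes.

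Known FoxO targets moved little as a group, with 2 of 20 lower, none higher and a median of -0.18. The 2 were the pyruvate dehydrogenase kinase gene Pdk4 (30.1 and 3.13 FPKM) and the transcriptional coregulator gene Cited2 (54.97 and 22.5 FPKM). At the other end of that list, the stress-response gene Sesn1 stood at 11.0 and 19.4 FPKM and the insulin receptor gene Insr at 9.17 and 14.96 FPKM. Among 15 genes of the kinase pathway that acts on FoxO proteins, 1 was lower, 1 higher and 13 neither, with a median of 0.47. The lower one was Sgk1, a kinase that phosphorylates FoxO proteins (99.1 and 16.4 FPKM), and the higher one was the deacetylase gene Sirt1 (73.3 and 149.7 FPKM), which lost its call when ratios were centred on the median of measured genes.

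Foxn4 and Foxi2 had the lowest ratios, and both were listed at 0 for Aire-KO. Foxn4, a regulator of retinal and spinal interneurons, had 1.57 FPKM in the WT value, an estimated 212 fragments. A count of 0 allows up to 0.0194 FPKM for it in the library labelled Aire-KO (3 fragments). It was the only forkhead or Sox gene among the 70 genes (0.342% of 20473) called in the authors' deposited table, with a q-value of 0.0155, which compares 2 libraries and not 2 genotypes. Foxi2, a relative of the ionocyte regulator Foxi1, stood at 1.06 FPKM, an estimated 125 fragments, where 0 fragments allow up to 0.0223 FPKM. In the authors' deposited table its q-value was 0.125. The third FoxI gene, Foxi3, a regulator of hair and tooth placodes, was under the minimum at 0.352 and 0.0356 FPKM. Ionocyte-like markers were lower in 4 of 4 measured genes, summed 20.4 and 3.37 FPKM, with Ascl3 (0.653 FPKM) listed at 0 for Aire-KO, and their part in the FoxI values was not tested.

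The start regions of some genes called lower, higher or neither are set out here with their CpG content. Each is the 100 bases just before the start in the RefSeq promoter table of GRCm38.p6 (the mm10 assembly), 5′ to 3′ on the gene's strand, with every CG in capitals. That start equals the start of the gene's RefSeq record for 4 of these genes. For Foxn4 it lies 657 bp inside that record, at a start downstream of the outermost one. Foxi2 lies at chr7:135410267-135410366 (plus strand), Foxn4 at chr5:114273762-114273861 (minus), Sox2 at chr3:34649895-34649994 (plus), Sox21 at chr14:118237031-118237130 (minus) and Foxp4, the most abundant forkhead gene here, at chr17:47924633-47924732 (minus).
Foxi2: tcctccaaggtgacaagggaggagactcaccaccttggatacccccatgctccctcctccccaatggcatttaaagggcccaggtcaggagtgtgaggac
Foxn4: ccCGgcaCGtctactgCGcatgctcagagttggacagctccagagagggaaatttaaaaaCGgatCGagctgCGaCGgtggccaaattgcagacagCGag
Sox2: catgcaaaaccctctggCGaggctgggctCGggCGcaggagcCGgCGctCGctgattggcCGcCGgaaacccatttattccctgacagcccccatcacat
Sox21: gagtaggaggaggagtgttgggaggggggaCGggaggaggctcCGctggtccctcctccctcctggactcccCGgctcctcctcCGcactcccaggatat
Foxp4: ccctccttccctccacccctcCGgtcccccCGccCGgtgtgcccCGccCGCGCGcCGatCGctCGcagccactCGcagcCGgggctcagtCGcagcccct

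These stretches held 0 CGs in Foxi2, 8 in Foxn4, 8 in Sox2, 4 in Sox21 and 13 in Foxp4. Foxi2 and Foxn4 were both listed at 0 for Aire-KO, although 1 has no CG in this stretch and the other 8. A promoter was found for 38 of the 59 genes, and its start equalled that of the gene's RefSeq record in 29 of them. Over the 250 bases before the start, the ratio of observed to expected CpG had a median of 0.740 in those 38 genes, against 0.379 for all 27025 genes with a promoter and 0.677 for measured genes. Among all measured genes the lower ones had a median of 0.278. The 4 lower forkhead and Sox genes with a promoter stood at 0.149 (Foxi2), 0.376 (Foxa2), 0.690 (Foxn4) and 0.833 (Sox2), so 3 of them lay above that median. The letters TATAAA, on either strand of the 300 bases around the start, occurred in 2 of 38 (5.26%), Foxa3 and Foxp3. The share was 14.2% of all promoters and 9.05% of those of measured genes. The forkhead letters TGTTTAC occurred in Foxa1 and Sox12 (5.26%, against 3.52% of all promoters and 2.62% for measured genes). The Sox letters ACAAAG occurred in 9 (23.7%, against 18.7% of all promoters and 15.2% for measured genes). They were Sox2, Sox6, Sox15, Foxa1, Foxb2, Foxn3, Foxo3, Foxp1 and Foxp3. That is 25% of the Sox and 23.1% of the Fox genes with a promoter. These are matches of letters and not binding sites.

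**Figure D3:**
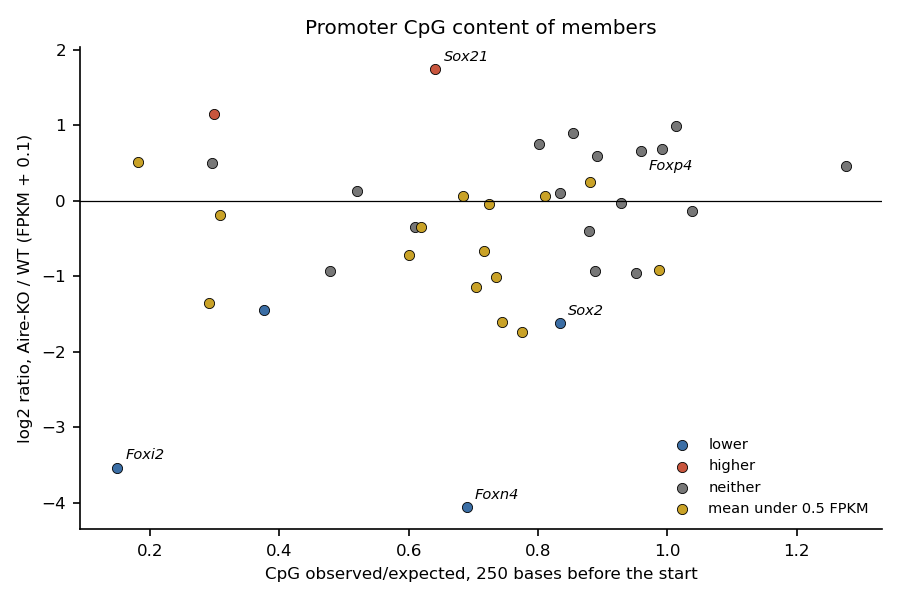
Ratio of observed to expected CpG in the 250 bases before the start (horizontal axis) against log2 ratio of expression (vertical axis, 0.1 FPKM added) for the 38 forkhead and Sox genes with a promoter, coloured by call. The 4 lower genes are spread from 0.149 (Foxi2) to 0.833 (Sox2).

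Forkhead genes of mesenchyme sit in a pair of paralogous clusters, on chromosomes 8 and 13. On chromosome 8, Foxf1 (121084386 to 121088154, mm10), a regulator of lung and gut mesenchyme, stood at 1.30 and 0.180 FPKM, which gave -2.32 (-3.57 to -2.19). Beside it, the lymphatic vessel regulator gene Foxc2 stood at 0.258 and 0.0433 FPKM, and the gut mesenchyme gene Foxl1 at 0.274 FPKM and listed at 0, both under the minimum. Their estimated fragments were 31 and 6 for Foxc2 and 36 and 0 for Foxl1. Foxf1 and Foxc2 are separated by Mthfsd, a gene outside the family, which differed little at 10.2 and 8.28 FPKM. On the other side of Foxf1, 1.35 kb away, the long noncoding RNA gene Fendrr stood at 0.442 and 0.0417 FPKM.

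In the chromosome 13 cluster no gene was called. Foxc1 (31806646 to 31810635) stood at 2.48 and 2.43 FPKM (-0.03, -0.22 to 0.15). Foxf2, under the minimum, stood at 0.348 and 0.336 FPKM (-0.04, -0.73 to 0.64). Foxq1, a gene of hair and stomach epithelium, was far more abundant at 17.2 and 11.7 FPKM (-0.55, -0.65 to -0.46). The counting intervals of the paralogs Foxf1 and Foxf2 did not overlap, nor did those of Foxc2 (-4.12 to -1.28) and Foxc1, and the plot of both clusters shows the same separation. Of 7 fibroblast and pericyte markers, 6 were measured, 2 were higher and none lower (summed 64.2 and 118.5 FPKM, none listed at 0). The higher ones were the matrix genes Dcn (34.5 and 85.9 FPKM) and Lum (3.31 and 7.999 FPKM), while Col1a1 stood at 8.89 and 4.49 FPKM. Their part in these values was not tested.

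**Figure D4:**
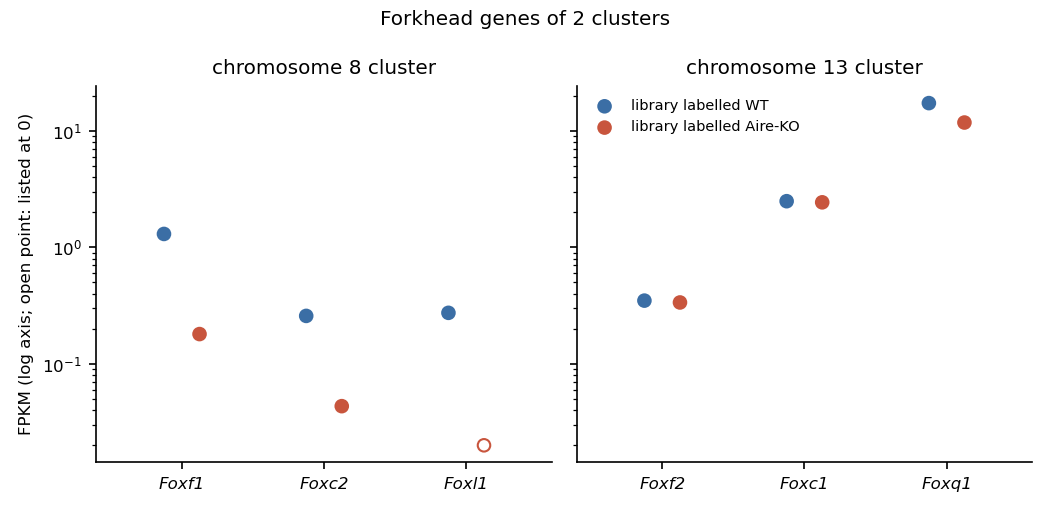
FPKM (log axis) of the forkhead genes on chromosome 8 (left) and chromosome 13 (right) in the library labelled WT (blue) and the library labelled Aire-KO (red), 1 point per library; the open point is Foxl1, listed at 0. On the left each red point lies well below its blue neighbour, whereas Foxf2 and Foxc1 on the right have nearly equal values.

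Foxs1, which marks perivascular cells and sensory neurons in other tissues, was the only forkhead gene called higher. It stood at 17.2 and 44.2 FPKM (chromosome 2, 152931898 to 152933208), or 1.36 on the log2 scale (1.25 to 1.47), and 2.57-fold as a ratio of FPKM. The fibroblast and pericyte markers Dcn and Lum were higher too, but the pericyte marker Pdgfrb stood at 6.26 and 4.19 FPKM, and the part of such cells in the Foxs1 value was not tested. The nearest measured gene on its right, Dusp15, a phosphatase gene 7.79 kb away, was also higher at 9.41 and 46.1 FPKM, while Mylk2 on its left stood at 2.99 and 1.75 FPKM. Sox12, 533.9 kb to the left of Foxs1, fell just short of the rule, as given with the SoxC genes.

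Among forkhead genes made in many cell types, 7 had higher values, each short of 2-fold. They were not fixed as a group beforehand, and Foxo1, Foxo3 and Foxo4, given above, lay slightly below 0. Foxp4, a repressor of the FoxP group, was the most abundant forkhead gene at 60.4 and 95.3 FPKM (0.66, 0.62 to 0.70). The FoxK genes, repressors of autophagy genes, stood at 5.90 and 9.05 FPKM (Foxk1) and 12.7 and 17.6 FPKM (Foxk2). Foxj2 was at 10.4 and 15.8 FPKM and Foxj3 at 8.01 and 13.03 FPKM. Foxn2 (5.46 and 8.99 FPKM) and Foxn3, a checkpoint-linked repressor (7.19 and 10.2 FPKM), followed the same course. Log2 ratios of these 7 genes lay between 0.47 and 0.71, and every counting interval lay above 0. Foxp1, in contrast, stood at 2.42 and 2.66 FPKM, with an interval that included 0 (-0.03 to 0.30). Of 13 FoxP and FoxK partner genes none was called, and their median was 0.20, with the corepressor gene Ctbp1 at 50.3 and 62.2 FPKM.

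Foxm1, the forkhead factor that drives mitotic genes, stood at 2.09 and 3.23 FPKM (0.60, 0.46 to 0.80). Of 15 known mitotic targets, 2 were higher, none lower and 13 neither, with a median of 0.58. The higher genes were the cyclin gene Ccnb2 (11.6 and 29.9 FPKM) and the kinetochore gene Cenpf (0.574 and 2.04 FPKM), of which 1 stayed higher with 1 FPKM added or with a minimum of 2 FPKM, while the kinase gene Nek2 stood at 5.79 and 5.38 FPKM.

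Forkhead genes of single embryonic organs had mixed values. Foxd3, a regulator of neural crest and pluripotent cells, was at 5.43 and 10.2 FPKM (0.90, 0.77 to 1.06). Lower values were found for Foxh1, the partner of Smad proteins in Nodal signalling, at 6.07 and 3.32 FPKM (-0.85, -1.13 to -0.62), and for Foxb2, at 1.61 and 0.796 FPKM (-0.93, -1.503 to -0.531). None of these 3 was called. Foxe1, required for thyroid development, was called lower at 0.955 and 0.312 FPKM (-1.36, -2.55 to -0.76), from an estimated 42 and 16 fragments.

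The SoxB genes split. Sox21 had the highest ratio of all 38 measured genes, at 6.09 and 20.7 FPKM (1.75, 1.67 to 1.87), a 3.402-fold ratio of FPKM. In the authors' deposited table its q-value was 0.586. Sox2, the stem cell and foregut factor that Sox21 can oppose, was lower at 1.23 and 0.331 FPKM (-1.62, -2.48 to -1.31). Both have 1 exon, at chr14:118233233-118237030 for Sox21 and chr3:34649995-34652461 for Sox2. The noncoding Sox2ot, inside which Sox2 lies, was at 0.0303 FPKM and listed at 0. The other SoxB genes were under the minimum, with Sox3 at 0.303 and 0.0681 FPKM, Sox1 at 0.0986 and 0.00477 FPKM, and Sox14 listed at 0 and at 0.0195 FPKM.

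Of 13 genes that encode partners of SoxB factors, 9 were measured, of which 3 were lower, 1 was higher and 5 were neither (median -0.46). The pluripotency gene Pou5f1 stood at 8.53 and 0.382 FPKM, and Fgf4, a known joint target of Sox2 and Pou5f1, at 1.63 FPKM and listed at 0. Pou3f3, a neural POU factor gene, was higher at 1.54 and 5.90 FPKM. The squamous regulator gene Trp63 was at 27.6 and 40.6 FPKM.

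The SoxC genes, which act in progenitors of many tissues, all had ratios above 0. Sox4 was the most abundant Sox gene, at 29.9 and 50.5 FPKM (0.75, 0.70 to 0.81). Sox12 stood at 1.10 and 2.30 FPKM, a 2.08-fold ratio of FPKM but a log2 ratio of 0.996 with 0.1 added, just under the rule. Sox11 was under the minimum at 0.454 and 0.481 FPKM (-0.20 to 0.38). Among 19 measured HMG-box and Wnt factor genes beside the Sox family, 1 was higher, none lower, and the median was 0.36. The higher one was Tcf7, an HMG-box factor of T cells and Wnt signalling (21.6 and 51.6 FPKM).

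Within SoxE, Sox9 and Sox10 diverged. Sox9, a factor of cartilage and epithelial progenitors, stood at 19.99 and 29.5 FPKM (0.56, 0.51 to 0.62). Sox10, the regulator of neural crest and glia, stood at 1.96 and 0.109 FPKM (-3.30, -5.03 to -3.42), from an estimated 236 and 15 fragments. Its chromosomal neighbour 3.145 kb away, the RNA polymerase subunit gene Polr2f, was at 158.2 and 164.8 FPKM. Known Sox10 targets included 5 lower and 5 neither among 10 measured of 12, with the gap junction gene Gjb1 at 5.40 and 0.0835 FPKM, but Mia at 53.2 and 46.3 FPKM. Melanocyte and Schwann cell markers were lower in 4 of 7 measured genes, summed 49.9 and 35.4 FPKM, with Tyr at 0.128 FPKM and listed at 0. Their part in the Sox10 value was not tested.

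Cartilage genes known as targets of Sox9, Sox5 and Sox6 included 4 lower and 5 neither among 9 measured. The matrix gene Comp stood at 6.56 and 0.196 FPKM and Acan at 1.23 FPKM and listed at 0, but Matn1 at 9.92 and 18.7 FPKM. Of the SoxD genes, Sox13, known from gamma delta T cells, was at 1.88 and 0.917 FPKM (-0.96, -1.31 to -0.76), just outside the rule. Sox6 was under the minimum at 0.384 and 0.141 FPKM, and Sox5 at 0.0413 and 0.0240 FPKM. Thymocyte markers were lower in 3 of 9 measured genes, with summed values of 35.6 and 21.4 FPKM, and their part in the Sox13 value was not tested.

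The SoxF genes are known from endothelium. Sox18 was lower at 1.56 and 0.191 FPKM (-2.51, -3.92 to -2.24), and Sox17 was under the minimum at 0.233 and 0.00676 FPKM, the latter from an estimated 1 fragment. Sox7 differed less, at 2.50 and 1.84 FPKM (-0.42, -0.66 to -0.22), and its interval did not overlap that of Sox18. Endothelial markers were lower in 3 of 5 measured genes, summed 20.7 and 8.51 FPKM, with Cdh5 at 2.62 and 0.222 FPKM, Tie1 at 1.24 and 0.0796 FPKM and none listed at 0. Their part in the SoxF values was not tested.

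Of the last Sox genes, Sox30, a factor of sperm development, stood at 1.02 and 1.11 FPKM (0.11, -0.22 to 0.45). Sox15 was called higher at 0.289 and 0.762 FPKM (1.15, 0.33 to 2.71), but from an estimated 9 and 29 fragments. Its exons overlap those of Mpdu1 on the opposite strand, which stood at 55.9 and 47.1 FPKM. The kit marks the strand, but no label says whether counting used it, so the value of Sox15 is uncertain.

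The 21 genes under the minimum ranged from 0 to 0.454 FPKM and from 0 to 0.481 FPKM, with medians of 0.190 and 0.0356 FPKM. In 15 of them the value was higher in the library labelled WT, in 5 it was higher in the library labelled Aire-KO, and Foxb1 was listed at 0 in both. Foxd4 (0.205 FPKM), Foxe3 (0.155 FPKM) and Foxd1 (0.0649 FPKM) had values labelled WT only and were otherwise listed at 0. The ovarian factor gene Foxl2 stood at 0.190 and 0.0314 FPKM, close to the antisense transcript Foxl2os at 0.155 and 0.0155 FPKM. Foxd2 stood at 0.199 and 0.136 FPKM, Foxr1 at 0.157 and 0.0617 FPKM, and Foxp2, the forkhead gene linked to speech, at 0.134 and 0.139 FPKM. Foxr2 was listed at 0 and at 0.0425 FPKM. Foxp3, which defines regulatory T cells, stood at 0.0386 and 0.0447 FPKM, an estimated 6 and 8 fragments. Its exons overlap those of Ccdc22 (8.67 and 15.9 FPKM) on the opposite strand. Of 6 other regulatory T cell markers 1 was lower and 1 higher (summed 37.2 and 110.5 FPKM). The higher one, Ctla4, an inhibitory receptor gene, was at 11.1 and 83.4 FPKM, and the other markers had values from 0.646 to 13.6 FPKM and from 0.583 to 19.5 FPKM. Their part in the Foxp3 value was not tested. Among the remaining marker lists, lower genes numbered 1 of 6 for cortical epithelium and 4 of 5 for dendritic cells and macrophages. They numbered 1 of 5 for B cells and 4 of 6 for ciliated-like cells, a list that holds Foxj1, which was neither.

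Isoform shares are given for 3 genes with at least 1 FPKM in both libraries. In Foxp1, NM_001197322 made up 33.7% and 57.5% of the gene, and NM_053202 made up 66.3% and 42.5%. This shift of 23.8 percentage points compares with a median of 6.73 points for the largest shift per gene over 3561 genes, and 10% of those genes shifted by more than 26.8 points. In Foxp4 the main isoform NM_001110825 made up 57.3% and 44.3%, and in Foxj3 NM_001290696 made up 39.7% and 51.1%. How exactly reads were divided between isoforms that share exons was not measured, so the error of these shares is unknown. With a minimum of 5 FPKM in both libraries, which Foxp1 did not reach, no forkhead or Sox gene shifted by 20 points or more.

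The nearest gene rows on each side were compared with the 12 called genes. Of 12 measured neighbours of lower genes, 2 were lower and 10 neither, near the 20.5% lower among all measured genes. The lower ones were Clrn3 beside Foxi2 (28.0 and 7.24 FPKM) and the endothelin gene Edn2 beside Foxo6 (8.97 and 1.86 FPKM). Of 4 measured neighbours of higher genes, only Dusp15 was higher.

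**Figure D5:**
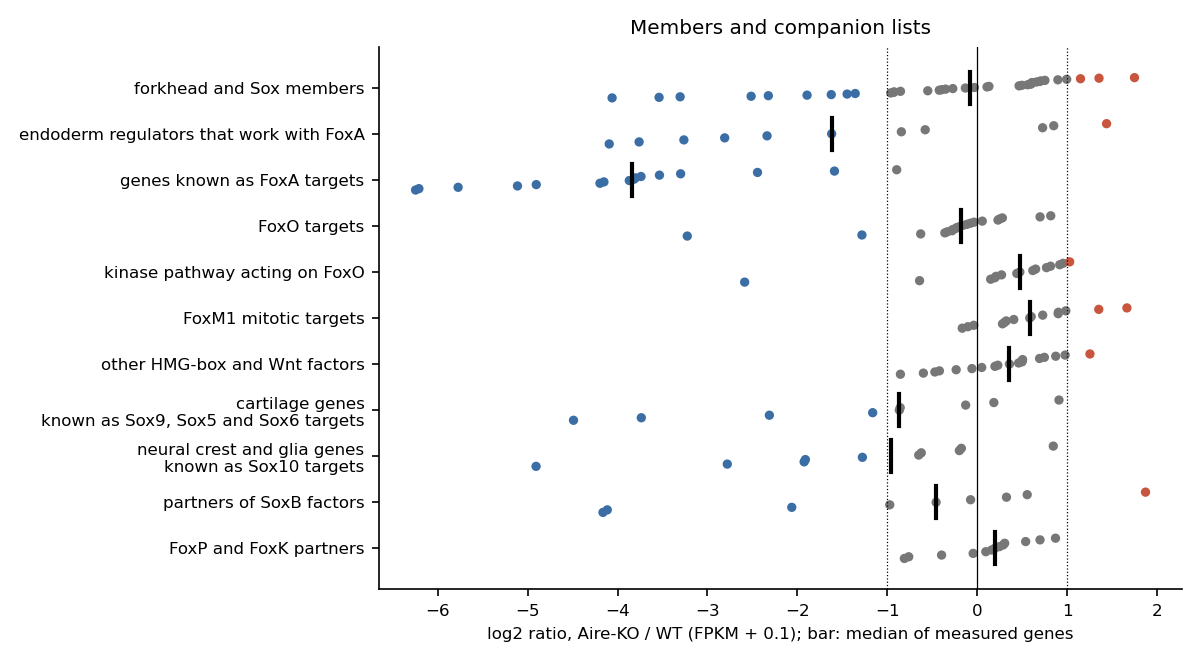
Log2 ratio (0.1 FPKM added) of each measured gene, 1 point per gene, for the 38 forkhead and Sox genes (top) and 10 lists of partners and known targets; black bars are medians, and blue and red points are at least 2-fold lower and higher. The forkhead and Sox genes have a median of -0.08, whereas the FoxA target list has its median at -3.84 and the FoxM1 target list at 0.58.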

How the data were processed

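Polyadenylated RNA of sorted mTECs was sequenced in 1 library labelled WT and 1 labelled Aire-KO. The authors deposited FPKM values for 23997 genes and 33295 isoforms. The tools named per the submitters' processing notes are TopHat2 and Cuffdiff, and the build is mm10. No source gives their versions, the scaling between libraries or the use of strand in counting. The p-value and q-value of each row are the authors' own, from their deposited comparison of these 2 libraries, and are quoted as such.

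Genes with status HIDATA, 5 in all, were left out. Fragments were estimated from 642 genes with 1 exon and 1 isoform of 1000 bp or more, choosing the total (47900000 and 54200000 fragments) and the length correction (200 and 170 bp) for which values up to 5 fragments came closest to whole numbers. Of these values, 68 and 79, 100% and 98.7% lay within 0.1 of a whole number, but total and correction were fitted to them. At 0.5 FPKM, a transcript of 2000 bp would have 43.1 and 49.6 fragments. Intervals are exact conditional binomial intervals and cover counting error only. Transcript lengths came from the file where 1 exon makes up the gene, otherwise from GENCODE M21. Promoters came from RefSeq (GRCm38.p6). All 59 symbols matched RefSeq. Named genes are the members, and in each list the most abundant and most extreme genes and those tied to a member. A few genes are included in the counts but not reported here. Members and lists were chosen with earlier results of these data known. Python 3.11.15, pandas 2.3.3 and scipy 1.17.1 were used, and calls and intervals were tested on simulated data.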

Additional observations from a re-analysis of the deposited data

How the results depend on the processing

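No result has a replicate, so only the processing could be varied. The 9 lower, 3 higher and 26 neither calls kept their sides with isoform rows summed. With a pseudocount of 1 FPKM, 4 genes were lower (Foxn4, Foxi2, Sox10 and Sox18), since Foxa2, Foxe1, Foxf1, Foxo6 and Sox2 fell under the rule, as did Sox15 among the higher. With no minimum 18 genes were lower, and with the minimum raised to 2 FPKM 0 were. A 4-fold rule left 5 lower and 0 higher. A 1.5-fold rule gave 13 lower, 13 higher and 12 neither. Scaling only the library labelled Aire-KO to the WT sum, an alternative chosen after seeing the data, shifts ratios of abundant genes by -0.08 and gave 10 lower, adding Sox13. Rescaling both libraries to a TPM-like sum also raises the values against the fixed 0.1 and minimum, so 40 genes were measured: 12 lower, among them Foxa1, Foxb2 and Sox13, 3 higher and 25 neither. A pseudocount of 0.01 gave 11 lower and 4 higher. None of the 38 measured genes changed sign under the 6 settings that alter the ratio. With a minimum of 2 FPKM, lower counts fell to 3 for the endoderm regulators, 2 for the cartilage genes, 2 for the Sox10 targets and 1 for the SoxB partners, because fewer genes were tested. Depth limits the genes under 0.5 FPKM, which rest on few fragments. No paired analysis was possible because each genotype has 1 library and no replicate numbers.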
